A study of Mus musculus with 6 samples.

Results

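The genes described here serve lipoprotein and lipid transport in stromal cells of the mouse large intestine: Apoe, Apod, Abca1, Abcg1, Lpl, Pltp, Lrp1, Nr1h2 and Nr1h3. They were taken by symbol as 9 of the 24346 genes in the deposited tables, and all 9 were listed in every library. Of these, 8 had an FPKM (fragments per kilobase of transcript, scaled to the mapped fragments of the library) that reached 1 in 3 or more libraries, the condition met by all 11429 genes tested. Abcg1 was below that level in all 6 libraries. The genes were selected on their FPKM in these same libraries, with the lower Apoe of mice with the Pdgfra-driven Cre already known, so their genotype differences are given as a description and carry no test.

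The study compared mice that carried a Cre recombinase driven from Pdgfra, a fibroblast gene, together with floxed Il10ra alleles (Pdgfra cre; Il10ra flox/flox, libraries 13, 23 and 25) with mice that carried the same floxed alleles and no Cre (Il10ra flox/flox, libraries 8, 9 and 43). Il10ra makes the subunit through which interleukin-10 is bound, and the Cre is meant to remove it in cells that express or once expressed Pdgfra. The mice were 12 weeks of age and had been given 1% DSS (dextran sulfate sodium, which injures the colonic epithelium), so no untreated colon is part of the comparison. Live cells that bore Podoplanin and lacked CD45, CD31 and EpCAM were sorted from the whole colon, from 3 mice per group with 3 separately numbered libraries. These groups are called Pdgfra-cre and floxed.

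Lipoprotein particles carry cholesterol and triglyceride between cells. Apolipoproteins such as APOE form their protein coat and are bound by lipoprotein receptors, while ABC transporters load cellular cholesterol onto apolipoproteins. Lipoprotein lipase releases fatty acids from the particles, and the phospholipid transfer protein moves phospholipid between them. The liver X receptors (LXR) are nuclear receptors that sense oxidised sterols and, in macrophages and liver, switch on many of these genes, Abca1, Abcg1, Apoe, Lpl and Pltp among them.

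The upstream sequences of 3 of the 4 genes whose groups did not overlap are shown here. Abca1 and Apoe are both textbook LXR targets. The sequences are the 250 bases before the most upstream RefSeq start site (GRCm38.p6), read 5′ to 3′ on the gene's own strand. Capitals mark a match to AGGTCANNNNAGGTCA, the direct repeat with 4 spacer bases that LXR with its RXR partner is known to bind, at no more than 3 mismatches on either strand, and the letters TATAAA on either strand.
Abca1 (chr4:53159896-53160145, minus strand): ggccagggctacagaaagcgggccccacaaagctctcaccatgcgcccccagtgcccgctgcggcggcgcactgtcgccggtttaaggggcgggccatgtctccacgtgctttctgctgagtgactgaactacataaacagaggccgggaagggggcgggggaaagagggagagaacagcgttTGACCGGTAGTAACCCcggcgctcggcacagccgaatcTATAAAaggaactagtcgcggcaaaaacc
Apoe (chr7:19699189-19699438, minus strand): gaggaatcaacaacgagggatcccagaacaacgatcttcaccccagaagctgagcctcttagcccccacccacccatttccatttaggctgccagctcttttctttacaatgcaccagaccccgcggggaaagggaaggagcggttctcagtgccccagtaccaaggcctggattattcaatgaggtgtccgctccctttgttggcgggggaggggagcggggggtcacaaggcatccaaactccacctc
Nr1h3 (chr2:91195117-91195366, minus strand): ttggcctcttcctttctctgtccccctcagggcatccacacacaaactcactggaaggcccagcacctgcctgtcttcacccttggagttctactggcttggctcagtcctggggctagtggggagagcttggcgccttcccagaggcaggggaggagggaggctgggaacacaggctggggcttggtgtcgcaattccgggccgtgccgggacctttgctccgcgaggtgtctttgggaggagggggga
Abca1 held a match with 3 mismatches on the opposite strand, from 67 to 52 bases before the start site, read in the motif's direction as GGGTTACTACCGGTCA. It also held TATAAA, beginning 29 bases before the start site, and these matches do not overlap. The best placements of the repeat had 5 mismatches in Apoe and 4 in Nr1h3, so no letters are in capitals there. Windows of the same length held the repeat at 3 mismatches in 18.5% of 27018 promoters, and TATAAA in 12.98%. Among the 7 members with a promoter in the table, only Abca1 held either, and at no more than 2 mismatches, met in 2.53% of promoters, none held the repeat. The limit of 3 mismatches was set with the Abca1 site in view, and a match in letters is a description of the window. Sequence outside these 250 bases was not searched, so a gene without a match here can hold sites elsewhere. Whether these letters bear on the direction of a difference was not tested.

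The libraries were alike in breadth, and 11188 to 11358 genes reached an FPKM of 1 in each. No source used here gives their total fragment numbers. The most frequent low values placed 1 fragment at roughly 0.112 to 0.135 FPKM for a transcript of 1 kilobase. Il10ra, the targeted gene, was listed at 0 in all 3 Pdgfra-cre libraries, against 0, 0 and 0.418 FPKM in floxed libraries 8, 9 and 43, so these values do not check the deletion. The fibroblast genes Dcn, Col1a1 and Pdgfra were expressed in all 6 libraries, and Ptprc, Pecam1 and Epcam, the genes behind the markers sorted against, were at or below 1.11 FPKM. Pdgfra-cre library 23 stood apart from the others, its log2 values correlating less with those of the remaining libraries (mean r of 0.950 across tested genes) than was seen for the other 5 (0.960 to 0.970). Nothing in the sources used here groups the libraries into batches.

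Across the 9 genes, the mean over all libraries ran from 0.579 FPKM for Abcg1 to 567 FPKM for Apoe. The order of FPKM, a scale already divided by transcript length, was the same in Pdgfra-cre library 25 and all 3 floxed libraries: Apoe, Pltp, Lpl, Lrp1, Apod, Nr1h2, Nr1h3, Abca1 and Abcg1. In the Pdgfra-cre group the libraries of Apoe and Pltp overlapped, and Lpl overlapped with both Lrp1 and Apod. In the floxed group only Lrp1 and Apod overlapped among neighbours in that order. Pdgfra-cre library 23 was the only library in which Pltp lay above Apoe.

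**Figure D1:**
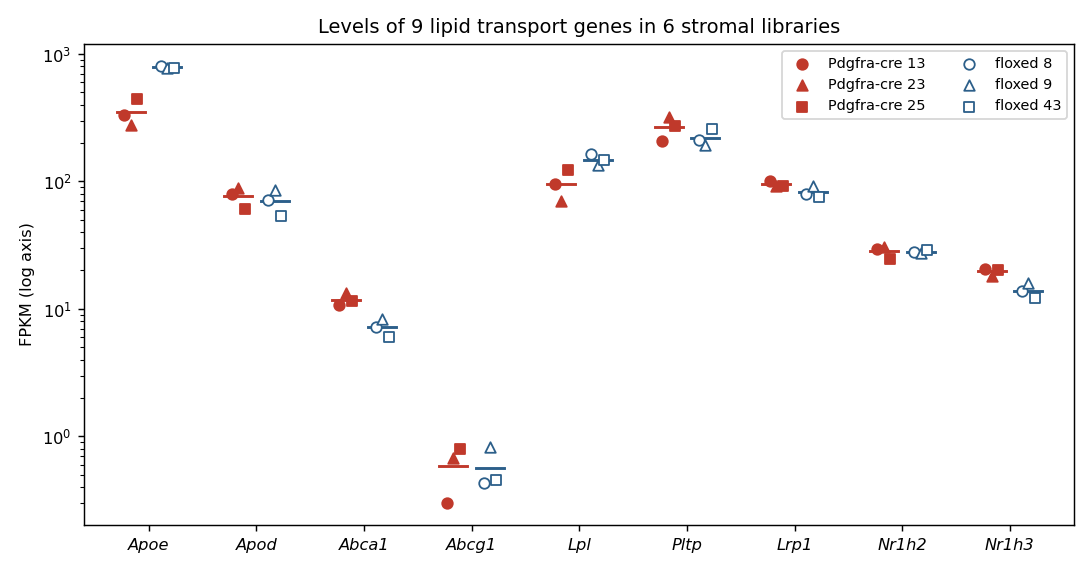
FPKM (log axis) of the 9 genes in each library, with filled red symbols for Pdgfra-cre and open blue symbols for floxed; the bars are group means. Apoe and Lpl lie lower and Abca1 and Nr1h3 higher in all 3 Pdgfra-cre libraries than in any floxed library.

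Apoe encodes apolipoprotein E, the main ligand by which remnant particles bind lipoprotein receptors (chromosome 7, 19696109 to 19699188, mm10, minus strand, with 4 exons in its longest transcript). It had 334, 274 and 442 FPKM in Pdgfra-cre libraries 13, 23 and 25, against 805, 772 and 774 FPKM in floxed libraries 8, 9 and 43. All 3 Pdgfra-cre libraries lay far below the floxed ones, and the groups did not overlap. The means were 350 ± 85.3 FPKM in Pdgfra-cre and 784 ± 18.3 FPKM in floxed libraries (SD, n = 3 each), 55.3% lower in Pdgfra-cre. The log2 difference, Pdgfra-cre minus floxed on the log2(FPKM + 1) scale, was -1.19 ± 0.16 (SE from limma). The floxed libraries varied little, with a coefficient of variation of 2.33%, against 24.4% in Pdgfra-cre. By rank among all 24346 genes, Apoe stood at 252, 339 and 167 in Pdgfra-cre libraries 13, 23 and 25, and at 70, 82 and 71 in floxed libraries 8, 9 and 43. In bulk RNA, fewer cells that make a transcript and less of it per cell cannot be told apart.

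The genes that flank Apoe on chromosome 7 did not share its difference. Tomm40, a mitochondrial import channel gene that lies 2125 bases away, averaged 26.3 ± 2.65 FPKM in Pdgfra-cre and 26.7 ± 2.51 FPKM in floxed libraries (SD, n = 3 each; log2 difference -0.021 ± 0.14, limma adjusted p = 0.979). Clptm1 averaged 39.7 ± 4.44 and Pvrl2 14.4 ± 4.39 FPKM in Pdgfra-cre, against 44.1 ± 0.915 and 13.9 ± 5.96 FPKM in floxed libraries. The other apolipoprotein genes of this cluster were nearly silent: Apoc1 ranged from 0 to 3.08 FPKM, Apoc2 from 0 to 0.271, and Apoc4 was listed at 0 in all 6 libraries.

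Apod encodes a small lipocalin that binds arachidonic acid and sterols and is unrelated in fold to APOE (chromosome 16, 31296192 to 31314808). It had 79.5, 88.2 and 60.7 FPKM in Pdgfra-cre libraries 13, 23 and 25, against 71.9, 85.7 and 53.6 FPKM in floxed libraries 8, 9 and 43. High and low libraries were found in both groups, and the groups overlapped throughout. The log2 difference was 0.12 ± 0.19 (SE), and it was -0.060 without floxed library 43. The ratio of Apoe to Apod, which 1 constant factor per library cannot change, was 4.196, 3.11 and 7.29 in Pdgfra-cre libraries 13, 23 and 25 and 11.2, 9.01 and 14.5 in floxed libraries 8, 9 and 43, so the ratios did not overlap.

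Of the 16 listed apolipoprotein and lipoprotein-associated genes, 4 were tested: Apoe, Apod, Clu and Saa3. Clu, which encodes clusterin (apolipoprotein J), averaged 45.2 ± 2.29 FPKM in Pdgfra-cre and 35.0 ± 20.0 FPKM in floxed libraries (SD, n = 3 each; log2 difference 0.50 ± 0.31, limma adjusted p = 0.627). Saa3, an acute phase protein that rides on high-density lipoprotein, had 2022, 3036 and 654 FPKM in Pdgfra-cre libraries 13, 23 and 25, against 659, 1022 and 202 FPKM in floxed libraries 8, 9 and 43. Its groups overlapped, and its log2 difference of 1.63 ± 0.64 did not pass (limma adjusted p = 0.378). The genes for the coat proteins made by liver and gut were absent or nearly so, with Apob, Apoa5, Apoc3 and Apoc4 listed at 0 in all 6 libraries and Apoa1 at no more than 0.533 FPKM.

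Abca1 encodes the transporter that hands cellular cholesterol and phospholipid to lipid-poor apolipoproteins (chromosome 4, 53030787 to 53159895). It had 10.7, 13.3 and 11.4 FPKM in Pdgfra-cre libraries 13, 23 and 25, against 7.18, 8.30 and 6.02 FPKM in floxed libraries 8, 9 and 43. Every Pdgfra-cre library lay above every floxed one, and the log2 difference was 0.65 ± 0.19 (SE). The means were 11.8 ± 1.36 FPKM in Pdgfra-cre and 7.17 ± 1.14 FPKM in floxed libraries (SD, n = 3 each), a ratio of 1.65. The ratio of Apoe to Abca1 was 31.3, 20.6 and 38.7 in Pdgfra-cre libraries 13, 23 and 25 and 112, 93.0 and 129 in floxed libraries 8, 9 and 43. This was the farthest pair of profiles for Apoe among the 9 genes, with a root mean square difference of 0.96 between mean-centred log2 values over the 6 libraries.

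Abcg1, which passes cholesterol to mature high-density lipoprotein particles, had the lowest level of the 9 genes (chromosome 17, 31057675 to 31117988). It had 0.300, 0.682 and 0.790 FPKM in Pdgfra-cre libraries 13, 23 and 25, against 0.429, 0.822 and 0.452 FPKM in floxed libraries 8, 9 and 43, or roughly 14.9 to 41.1 fragments per library if counted over its longest transcript. The groups overlapped, and the log2 difference was 0.017 with no filter on low values. Of the other ABC transporter and efflux genes, 10 were tested and 0 passed an adjusted p of 0.05, with 3 above 0 and 7 below 0 and a median log2 difference of -0.29. Abca2, a transporter of endosomes and lysosomes, averaged 5.94 ± 0.980 FPKM in Pdgfra-cre and 3.11 ± 0.607 FPKM in floxed libraries (SD, n = 3 each; log2 difference 0.76 ± 0.22, limma adjusted p = 0.247), with no overlap between groups. The related Abca6, Abca8a and Abca9 averaged 5.29 ± 2.55, 38.8 ± 13.7 and 8.08 ± 1.44 FPKM in Pdgfra-cre, against 7.71 ± 1.42, 48.4 ± 6.85 and 10.6 ± 2.51 FPKM in floxed libraries. Each of these 3 was lowest in Pdgfra-cre library 23, and their groups overlapped.

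Lpl encodes lipoprotein lipase, which splits the triglyceride of circulating particles (chromosome 8, 68880491 to 68907448). It had 94.6, 70.3 and 122 FPKM in Pdgfra-cre libraries 13, 23 and 25, against 164, 133 and 146 FPKM in floxed libraries 8, 9 and 43. The groups did not overlap, although Pdgfra-cre library 25 came close to floxed library 9. The means were 95.7 ± 25.998 FPKM in Pdgfra-cre and 148 ± 15.5 FPKM in floxed libraries (SD, n = 3 each), 35.3% lower in Pdgfra-cre, and the log2 difference was -0.65 ± 0.19 (SE). Among the 9 genes its profile was the nearest to that of Apoe, with a root mean square difference of 0.28. In both genes Pdgfra-cre library 25 was the highest and library 23 the lowest of that group.

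**Figure D2:**
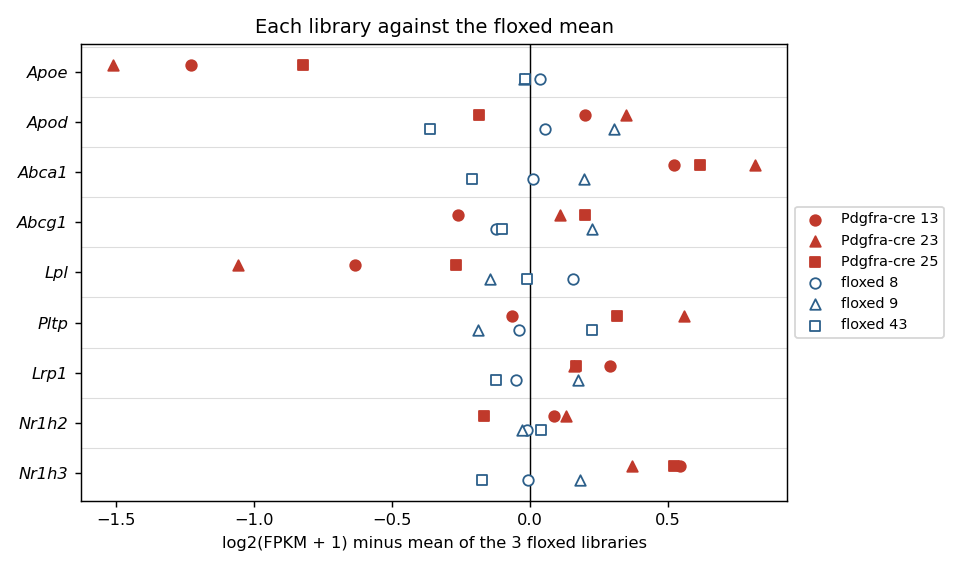
log2(FPKM + 1) of each library minus the mean of the 3 floxed libraries, for the 9 genes; filled red symbols are Pdgfra-cre and open blue symbols floxed libraries. Apoe lies between -1.51 and -0.82 and Lpl between -1.06 and -0.27 in Pdgfra-cre, and Abca1 lies between 0.52 and 0.82.

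Pltp encodes the phospholipid transfer protein, which remodels high-density lipoprotein (chromosome 2, 164839518 to 164857711). It had 209, 322 and 272 FPKM in Pdgfra-cre libraries 13, 23 and 25, against 212, 191 and 255 FPKM in floxed libraries 8, 9 and 43. The lowest Pdgfra-cre library lay among the floxed ones, so the groups overlapped, and the log2 difference was 0.27 ± 0.17 (SE), or 0.13 without Pdgfra-cre library 23. Exons of Pltp share 495 bases with Ctsa, which runs on the opposite strand, and reads there could have counted toward either gene. Ctsa averaged 83.2 ± 1.70 FPKM in Pdgfra-cre and 90.1 ± 10.02 FPKM in floxed libraries (SD, n = 3 each). The ratio of Lpl to Pltp was 0.453, 0.219 and 0.450 in Pdgfra-cre libraries 13, 23 and 25 and 0.773, 0.696 and 0.573 in floxed libraries 8, 9 and 43.

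Among the other lipases and their regulators, 8 were tested and 0 passed, with 4 above 0 and 4 below 0 and a median log2 difference of -0.029. Angptl4, which encodes an inhibitor of lipoprotein lipase, had 124, 56.4 and 65.9 FPKM in Pdgfra-cre libraries 13, 23 and 25, against 69.1, 102 and 60.3 FPKM in floxed libraries 8, 9 and 43 (limma adjusted p = 0.981). Lipa, the lysosomal acid lipase gene, averaged 44.6 ± 5.31 FPKM in Pdgfra-cre and 47.8 ± 5.75 FPKM in floxed libraries, and Lmf1, which matures the lipase in the endoplasmic reticulum, ranged from 17.6 to 23.8 FPKM over all 6 libraries. The cholesterol-esterifying enzyme gene Lcat (2.32 ± 1.09 FPKM in Pdgfra-cre and 1.68 ± 1.19 FPKM in floxed libraries) and the hormone-sensitive lipase gene Lipe (4.04 ± 0.734 and 5.87 ± 2.04 FPKM) were low (SD, n = 3 each). Gpihbp1, which anchors the lipase to capillary endothelium, was listed at 0 in 5 of the 6 libraries, and the hepatic lipase gene Lipc in all 6.

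Lrp1 encodes a large receptor that takes up APOE-bearing remnants and many proteases (chromosome 10, 127538161 to 127621148). It had 100.3, 91.6 and 92.1 FPKM in Pdgfra-cre libraries 13, 23 and 25, against 79.1, 92.5 and 75.0 FPKM in floxed libraries 8, 9 and 43. Floxed library 9 reached the level of the Pdgfra-cre libraries, so the groups overlapped, and the log2 difference was 0.21 ± 0.12 (SE). Of the other receptor genes 10 were tested and 0 passed. Lrpap1, the chaperone of this receptor family, averaged 111 ± 4.75 FPKM in Pdgfra-cre and 129 ± 5.68 FPKM in floxed libraries (SD, n = 3 each; log2 difference -0.21 ± 0.10, limma adjusted p = 0.521), without overlap. Lrp10 averaged 60.1 ± 3.21 FPKM in Pdgfra-cre and 57.1 ± 3.71 FPKM in floxed libraries.

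The remaining receptors named were low. Sort1, a sorting receptor of the Golgi, averaged 2.28 ± 0.442 FPKM in Pdgfra-cre and 1.07 ± 0.480 FPKM in floxed libraries (SD, n = 3 each; log2 difference 0.68 ± 0.27, limma adjusted p = 0.373). Cd36, a scavenger receptor that takes up fatty acids and oxidised particles, had 1.35, 0.194 and 1.22 FPKM in Pdgfra-cre libraries 13, 23 and 25, against 1.54, 3.75 and 18.3 FPKM in floxed libraries 8, 9 and 43. The groups did not overlap, but floxed library 43 held most of the floxed signal, and the log2 difference of -1.74 ± 0.64 did not pass (limma adjusted p = 0.346).

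Nr1h2 and Nr1h3 encode the 2 LXR receptors, LXR beta and LXR alpha. Nr1h2 (chromosome 7, 44549616 to 44553951) had 29.7, 30.7 and 24.8 FPKM in Pdgfra-cre libraries 13, 23 and 25, against 27.7, 27.4 and 28.7 FPKM in floxed libraries 8, 9 and 43. The floxed values lay inside the range of the Pdgfra-cre values, and the log2 difference was 0.018 ± 0.14 (SE). Nr1h3 (chromosome 2, 91184061 to 91202834) had 20.7, 18.2 and 20.3 FPKM in Pdgfra-cre libraries 13, 23 and 25, against 13.8, 15.8 and 12.2 FPKM in floxed libraries 8, 9 and 43. All Pdgfra-cre libraries lay above all floxed ones, and the log2 difference was 0.48 ± 0.16 (SE). The means of Nr1h3 were 19.7 ± 1.33 FPKM in Pdgfra-cre and 13.9 ± 1.83 FPKM in floxed libraries (SD, n = 3 each). Nr1h3 remained below Nr1h2 in all 6 libraries, with a ratio of Nr1h3 to Nr1h2 of 0.695, 0.594 and 0.820 in Pdgfra-cre libraries 13, 23 and 25 and of 0.497, 0.578 and 0.424 in floxed libraries 8, 9 and 43. Nr1h3 shares 34 exonic bases with Gm13783, a gene on the same strand that is not in the tables used here.

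Of the other genes in the list of LXR partners, corepressors and related receptors, 7 were tested and 0 passed, with a median log2 difference of 0.070. The partner gene Rxrb ranged from 9.84 to 12.8 FPKM in Pdgfra-cre and from 8.92 to 13.5 FPKM in floxed libraries. The corepressor gene Ncor1 averaged 16.8 ± 2.77 FPKM in Pdgfra-cre and 16.1 ± 3.64 FPKM in floxed libraries (SD, n = 3 each). Ncoa1, a coactivator gene, averaged 6.30 ± 2.28 and 3.81 ± 0.571 FPKM (log2 difference 0.55 ± 0.28, limma adjusted p = 0.520), and Pparg, the fatty acid sensor of adipocytes, 11.9 ± 3.10 FPKM in Pdgfra-cre and 19.1 ± 6.02 FPKM in floxed libraries (-0.63 ± 0.25, limma adjusted p = 0.378).

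Of 16 listed LXR target genes, 11 were tested, of which 4 are members. Apoe and Lpl were lower in Pdgfra-cre and Abca1 higher without overlap, and Pltp overlapped. The members were chosen with this contrast known, so nothing is read from their directions. The 7 tested targets that are no members lay on both sides of 0. Of these, 0 passed, 4 were above 0 and 3 below 0, and the median log2 difference was 0.16. Scd1, a fatty acid desaturase gene, averaged 17.7 ± 2.34 FPKM in Pdgfra-cre and 12.1 ± 2.09 FPKM in floxed libraries (SD, n = 3 each; log2 difference 0.51 ± 0.18, limma adjusted p = 0.319). Smpdl3a, a phosphodiesterase gene, averaged 61.2 ± 4.91 and 49.3 ± 6.88 FPKM (0.31 ± 0.14, limma adjusted p = 0.441). These 2 did not overlap between groups, which was also seen for 16.4% of all tested genes. Scd2 (31.6 ± 2.45 FPKM in Pdgfra-cre and 26.01 ± 4.79 FPKM in floxed libraries) and Srebf1, the lipid synthesis factor gene (16.3 ± 4.18 and 20.4 ± 1.55 FPKM), overlapped. Mylip, which encodes a ubiquitin ligase, lay between 18.1 and 21.3 FPKM in all 6 libraries (log2 difference -0.0070 ± 0.14, limma adjusted p = 0.995).

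Sterol-handling genes included Ch25h, whose enzyme makes 25-hydroxycholesterol, an oxysterol that can act on LXR. Ch25h had 10.3, 13.7 and 14.3 FPKM in Pdgfra-cre libraries 13, 23 and 25, against 29.9, 20.8 and 22.1 FPKM in floxed libraries 8, 9 and 43. The groups did not overlap, and the log2 difference of -0.87 ± 0.19 had the lowest adjusted p of the tested pathway genes that are no members (limma adjusted p = 0.169). Across this list 13 genes were tested and 0 passed, with 5 above 0 and 8 below 0. The lysosomal cholesterol carrier gene Npc2 averaged 90.1 ± 11.5 FPKM in Pdgfra-cre and 84.2 ± 3.82 FPKM in floxed libraries, Hsd3b7, a bile acid pathway enzyme gene, 84.0 ± 15.9 and 66.9 ± 7.20 FPKM, and Osbp, an oxysterol-binding protein gene, 5.38 ± 1.44 and 3.79 ± 1.53 FPKM (SD, n = 3 each). Cyp27a1, which makes 27-hydroxycholesterol, ranged from 32.6 to 45.1 FPKM with overlap.

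**Figure D3:**
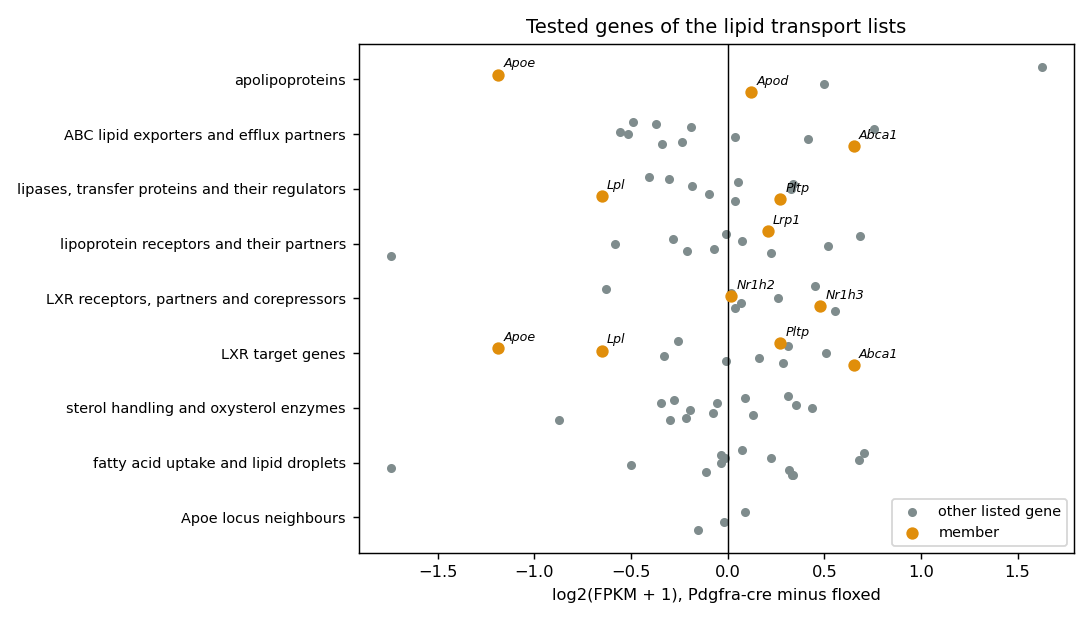
log2 difference in log2(FPKM + 1), Pdgfra-cre minus floxed, for the tested genes of 9 lists; each point is a gene and the 8 tested members are orange. Points lie on both sides of 0 in every list, and among the apolipoproteins Apoe alone lies below 0.

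Set against the whole table, groups without overlap made up 16.4% of the 11429 genes tested, 8.07% higher and 8.29% lower in Pdgfra-cre. Of the 8 tested members 4 did not overlap, Abca1 and Nr1h3 higher and Apoe and Lpl lower, and nothing is read from that count since the genes were chosen with this contrast known. Of the 71 tested pathway genes that are no members, 16.9% did not overlap, 8 higher and 4 lower, close to the background. Their median log2 difference was 0.019, against 0.0012 for all tested genes. No gene in the whole table passed an adjusted p of 0.05 with limma and all 6 libraries (0 of 11429, or 0%), while 1253 (11%) were under 0.05 before adjustment, 10 of them among these 71.

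Among the 7879 tested genes that averaged 5 FPKM or more, the 5 whose profiles over the 6 libraries were nearest to that of Apoe were Bmp7, Gja1, Ednra, Syt13 and Wif1. Their root mean square differences from Apoe were 0.11, 0.13, 0.16, 0.16 and 0.17 on the log2 scale. Bmp7, a bone morphogenetic protein gene, had 13.6, 9.94 and 15.6 FPKM in Pdgfra-cre libraries 13, 23 and 25, against 26.4, 29.6 and 31.4 FPKM in floxed libraries 8, 9 and 43. Gja1, which encodes connexin 43, averaged 100.4 ± 22.4 FPKM in Pdgfra-cre and 222 ± 31.0 FPKM in floxed libraries (SD, n = 3 each). Ednra, an endothelin receptor gene, averaged 41.4 ± 6.69 and 81.1 ± 9.69 FPKM, Syt13, of the synaptotagmin family, 17.6 ± 5.44 and 39.1 ± 5.51 FPKM, and Wif1, a secreted WNT inhibitor gene, 9.40 ± 3.60 FPKM in Pdgfra-cre and 25.8 ± 2.58 FPKM in floxed libraries. These genes were picked for this likeness, so their values carry no test. Among the members, Abca1 was nearest to Nr1h3 (0.17), and Lrp1 and Nr1h3 were nearest to each other (0.15).

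Markers of other cells were read beside these genes, since macrophages, glia and adipocytes also make Apoe or Lpl. The 12 macrophage markers summed to 35.8, 62.3 and 19.6 FPKM in Pdgfra-cre libraries 13, 23 and 25, against 35.9, 29.9 and 23.8 FPKM in floxed libraries 8, 9 and 43, which overlapped. Of these, Adgre1, Fcgr1, Mrc1 and Cd163 were at or below 0.471 FPKM and Csf1r at or below 1.81 FPKM in every library. Adgre1 did not overlap, with 0 to 0.034 FPKM in Pdgfra-cre and 0.078 to 0.278 FPKM in floxed libraries, all near 0. Other genes of the list were higher, with Lyz2 at 9.32 to 28.8, Tyrobp at 1.11 to 18.5, Cd68 at 3.76 to 6.96 and C1qb at 1.52 to 3.93 FPKM over the 6 libraries. Lyz2 and Tyrobp were highest in Pdgfra-cre library 23, as was the sum of neutrophil markers. The groups of all 6 tested macrophage markers overlapped. All adipocyte markers except Fabp4 were listed at 0 in all 6 libraries, Adipoq and Plin1 among them. The 9 enteric glia markers summed to 9.10, 5.57 and 11.6 FPKM in Pdgfra-cre, against 18.5, 14.1 and 6.98 FPKM in floxed libraries. The 4 glia markers tested were all below 0, with a median log2 difference of -0.58, and the groups of the summed level overlapped. What these cells contribute to the levels of the 9 genes was not tested.

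The summed markers of subepithelial fibroblasts, smooth muscle and Cd34 adventitial fibroblasts did not overlap between the groups. Over all tested genes the median log2 difference was 0.0012. The 8 markers of Pdgfra-high subepithelial fibroblasts (Foxl1, Bmp4, Bmp5, Bmp7, Nrg1, Sox6, F3 and Wnt5a), which include Bmp7 of the profiles nearest to Apoe, were all below 0, with sums of 405, 321 and 376 FPKM in Pdgfra-cre libraries 13, 23 and 25 and of 552, 563 and 793 FPKM in floxed libraries 8, 9 and 43. Smooth muscle markers (Myh11, Des, Cnn1, Smtn, Synm and Actg2) summed to 165, 66.6 and 181 FPKM in Pdgfra-cre and to 306, 300.4 and 271 FPKM in floxed libraries, with 6 of 6 below 0. Cd34 adventitial fibroblast markers (Cd34, Pi16, Dpp4, Ly6c1, Cd81, Ackr3 and Igfbp6) summed to 3130, 4185 and 2961 FPKM in Pdgfra-cre and to 2011, 2429 and 1822 FPKM in floxed libraries, with 6 of 7 above 0. None of these markers passed over all genes (limma, adjusted p of 0.05). Pdgfra itself, whose promoter drives the Cre, had 155, 120 and 174 FPKM in Pdgfra-cre libraries 13, 23 and 25, against 178, 186 and 200 FPKM in floxed libraries 8, 9 and 43, without overlap. The sum of fibroblast markers was 19748 to 20063 FPKM in Pdgfra-cre and 16392 to 19710 FPKM in floxed libraries. Dcn alone made up 8626 to 11261 FPKM of it over the 6 libraries. Of the 10 fibroblast markers 8 were above 0, and 2, Pdgfra and Pdgfrb, were below 0. Neutrophil markers summed to 18.05, 180 and 10.8 FPKM in Pdgfra-cre libraries 13, 23 and 25, against 2.97, 11.4 and 1.36 FPKM in floxed libraries 8, 9 and 43. These sums overlapped. They were highest in library 23, which was also lowest in Apoe and Lpl. Of the 3 tested neutrophil markers, S100a8 and S100a9 were higher without overlap, as were 8.07% of all tested genes, and Retnlg overlapped. The part of these marker differences in the levels of the 9 genes was not tested. Without library 23 the log2 differences were -1.03 for Apoe and -0.45 for Lpl.

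**Figure D4:**
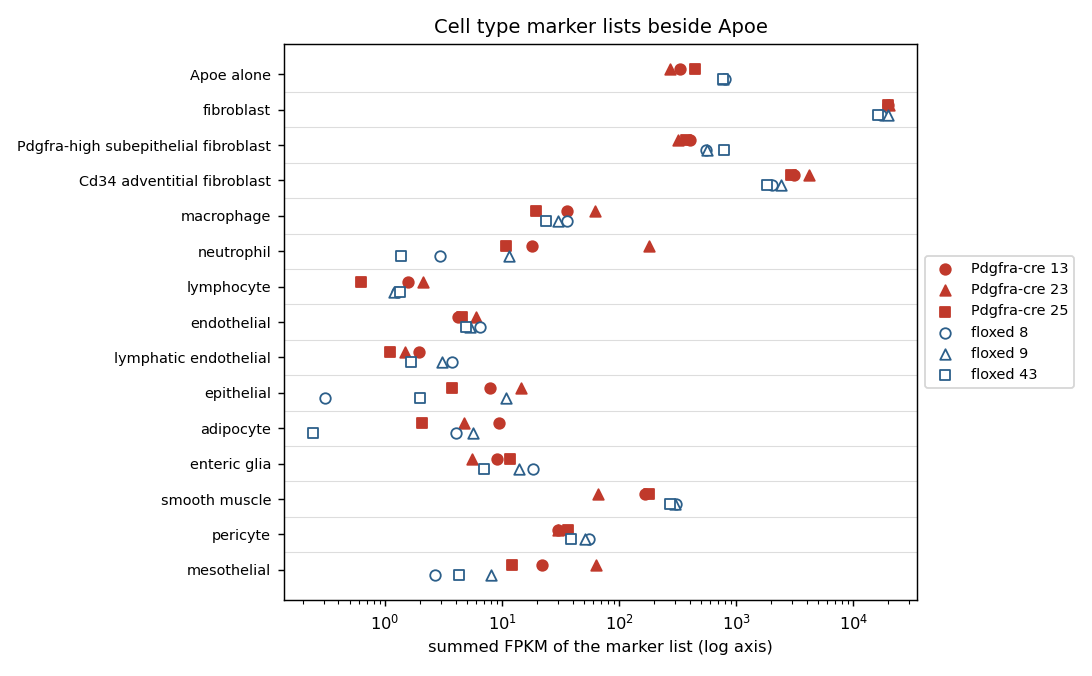
Summed FPKM (log axis) of 14 cell type marker lists in each library, with Apoe alone in the top row; filled red symbols are Pdgfra-cre and open blue symbols floxed libraries. The macrophage, adipocyte and glia sums reach no more than 62.3 FPKM. The subepithelial and smooth muscle sums are lower in all 3 Pdgfra-cre libraries than in any floxed library. The pericyte sum is lower too, but of its 4 tested markers only Kcnj8 did not overlap.

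The genotype differences kept their direction in the 4 genes without overlap. For such genes, leaving out a library or changing the pseudocount or the filter cannot reverse a direction. Only scaling by median of ratios, quantiles or TPM could have done so. After rescaling to TPM the differences were -1.29 for Apoe, -0.75 for Lpl, 0.59 for Abca1 and 0.40 for Nr1h3. Over 13 alternatives, which left out each library in turn or changed the pseudocount, the filter or the scaling, Apoe ranged from -1.37 without Pdgfra-cre library 25 to -1.03 without Pdgfra-cre library 23, and Lpl from -0.85 to -0.45 under the same omissions. Abca1 ranged from 0.47 with a pseudocount of 5 to 0.75 without floxed library 9, and Nr1h3 from 0.39 to 0.57. Apod and Nr1h2 took values on both sides of 0.

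**Figure D5:**
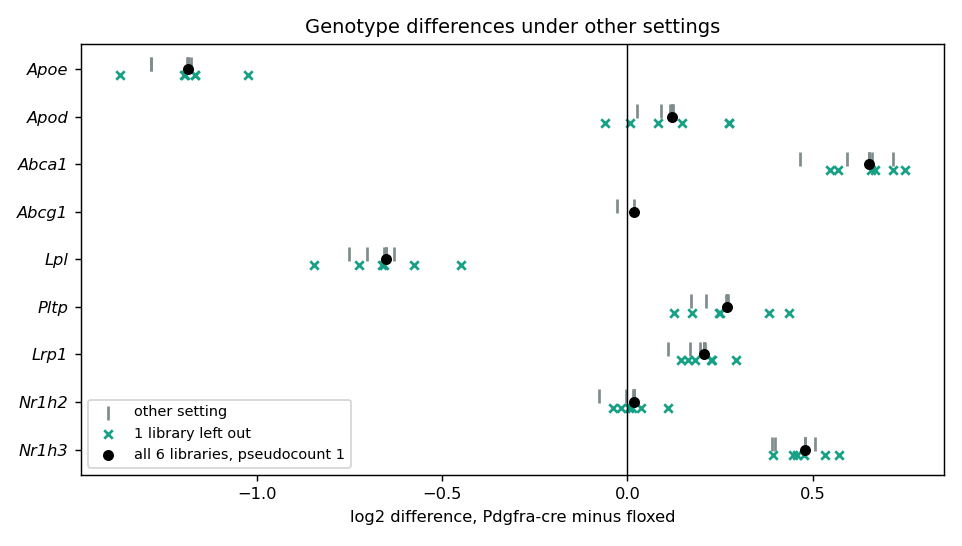
log2 difference, Pdgfra-cre minus floxed, of each gene with all 6 libraries (black points, for Abcg1 without the filter), with 1 library left out (green crosses) and under other settings (grey bars). Apoe and Lpl stay below 0 and Abca1, Nr1h3, Pltp and Lrp1 above 0.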

How the data were processed

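Gene-level FPKM were deposited by the authors as 1 table per library (3 Pdgfra-cre and 3 floxed libraries). Per the labels' protocols, total RNA was made into full-length cDNA with a SMART-Seq HT kit and into libraries with Nextera XT, a route that keeps no strand. Per the submitters' processing notes, TopHat2 2.1.1, Bowtie2 2.2.8, SAMtools 0.1.18 and Cuffdiff 2.2.1 were used with mm10. Annotation, options and read totals: not given in the sources used here. Since strand was lost, reads of overlapping genes can count toward either.

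FPKM were analysed as log2(FPKM + 1) in R 4.3.3 with limma 3.58.1 (moderated test with a variance trend, two-sided, Benjamini-Hochberg over 11429 genes, threshold 0.05). Genes had to reach 1 FPKM in 3 or more libraries. On this scale the change of low genes is understated. The fit was tested on simulated data whose changes were larger than the Apoe difference. That run therefore does not show whether differences of the size described here would be found. Values after ± are SD, or SE where marked. The series' design text gives 3 mice per group, so the 3 libraries of a group were taken as separate mice. The p-values set the difference between groups against the spread between those libraries, which limma moderates with a trend over all tested genes.

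The 9 genes, the pathway and marker lists and the tests were chosen with earlier results of these data known. Named beside the members were, per pathway list, the 2 most abundant other genes and those with the largest difference each way. The 5 nearest profiles to Apoe were also named, and a few more from the lists were picked with their values in view. Cell type lists not described in the text are given in the closing section. Loci came from GENCODE M21 (mm10), and promoters from RefSeq (GRCm38.p6), which matched 7 of the 9 genes. Neither Lpl nor Abcg1 had an entry. Some listed genes are not reported here. Alternatives were pseudocounts of 0.1 and 5, a filter at 5 FPKM or none, scaling by median of ratios, quantiles or TPM, no variance trend, and leaving out each library.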

Additional observations from a re-analysis of the deposited data

How the results depend on the processing

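With all 6 libraries, 0 genes passed under each of the 8 alternatives that kept them. Leaving out 1 library gave 0 to 33 genes, 0 to 14 higher and 0 to 19 lower. The count was 33 without Pdgfra-cre library 25 (14 higher and 19 lower), 3 without Pdgfra-cre library 13 (3 higher), 2 without floxed library 43 (1 higher and 1 lower) and 0 without Pdgfra-cre library 23, floxed library 8 or floxed library 9. The cause was not tested. The difference of Abca1 was 0.47 with a pseudocount of 5, against 0.65 with a pseudocount of 1. Apod was below 0 in 1 of 13 alternatives and Nr1h2 in 4 of 13. Abcg1 had a value in 2 alternatives, 0.017 without a filter and -0.027 after rescaling to TPM. Rescaling to TPM moved the median of all genes to -0.091. No paired analysis was possible because the library numbers of the groups do not match. Abcg1 had the fewest fragments, and 3 libraries per group limit all comparisons.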

Other observations

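Genes of fatty acid uptake and lipid droplets showed no shared direction. Of 13 tested, 0 passed an adjusted p of 0.05 (limma), 7 were above 0 and 6 below 0, and the median log2 difference was 0.072. The droplet coat genes Plin2 and Plin3 averaged 46.3 ± 3.24 and 53.1 ± 6.75 FPKM in Pdgfra-cre, against 50.5 ± 8.37 and 54.4 ± 5.86 FPKM in floxed libraries (SD, n = 3 each). Dgat2, which makes triglyceride, had 7.10, 8.38 and 6.45 FPKM in Pdgfra-cre libraries 13, 23 and 25, against 3.48, 3.69 and 5.57 FPKM in floxed libraries 8, 9 and 43, without overlap (log2 difference 0.68 ± 0.22, limma adjusted p = 0.290). It was chosen after its values were seen. Fabp4, a fatty acid carrier, averaged 5.38 ± 3.69 FPKM in Pdgfra-cre and 3.32 ± 2.78 FPKM in floxed libraries.

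The other marker lists gave these sums. Mesothelial markers (Msln, Upk3b, Upk1b, Lrrn4, Wt1 and Bnc1) summed to 21.97, 63.7 and 12.1 FPKM in Pdgfra-cre libraries 13, 23 and 25. In floxed libraries 8, 9 and 43 they summed to 2.65, 7.98 and 4.27 FPKM, without overlap. Of the 4 tested mesothelial markers, Msln and Upk3b were higher without overlap, as were 8.07% of all tested genes. Upk1b and Wt1 overlapped. Pericyte markers summed to 30.2, 30.0 and 36.4 FPKM in Pdgfra-cre and to 55.6, 50.7 and 38.4 FPKM in floxed libraries, and these sums did not overlap. Of the 4 tested pericyte markers 1, Kcnj8, was lower without overlap, as were 8.29% of all tested genes. The other tested pericyte markers overlapped, and Rgs5 was above 0 (log2 difference 0.078). Epithelial markers ranged from 3.72 to 14.5 FPKM in Pdgfra-cre and from 0.306 to 10.8 FPKM in floxed libraries, endothelial markers from 4.205 to 5.93 and from 4.94 to 6.48 FPKM, lymphatic endothelial markers from 1.10 to 1.95 and from 1.66 to 3.74 FPKM, and lymphocyte markers from 0.628 to 2.13 and from 1.20 to 1.35 FPKM.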
